A study of Arabidopsis thaliana with 12 samples.

Results

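The 36 nuclear genes described here encode subunits of the photosynthetic electron transport chain of Arabidopsis thaliana and a few proteins associated with it. They were taken by gene identifier from the 28775 genes counted: 11 of photosystem II with the related PPL1, 13 of photosystem I, 3 of the cytochrome b6f complex and plastocyanin, 4 for ferredoxin and ferredoxin-NADP+ reductase (FNR), 3 of the ATP synthase and 2 of cyclic electron flow. Genes of the light-harvesting antenna were left out. The rule for the choice was gene family and used no measured value, but it was set with earlier results of these data known. Counts came from whole rosettes of Col-0 plants, all wild type, grown under a 10-hour photoperiod. At 3 weeks of age every plant was moved for 10 days to low light of 8 µmol photons m-2 s-1. Plants then either stayed in low light or were given high light of 800 µmol photons m-2 s-1 for 10 min. Ribosome-protected fragments (RPF), the stretches of mRNA that ribosomes shield from RNase, and total RNA depleted of rRNA were sequenced from the same kind of extract. The 12 libraries form 4 groups of 3, with each kind of library made from both light conditions. How many rosettes went into a library is not given in the sources used here.

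Photosystem II takes electrons from water and passes them through plastoquinone to the cytochrome b6f complex, from which plastocyanin carries them to photosystem I. Photosystem I reduces ferredoxin, FNR passes the electrons on to NADP+, and the proton gradient built along the way drives the ATP synthase. The reaction centre proteins are made in the chloroplast, whereas the subunits described here are made by cytosolic ribosomes as precursors and imported. A plant moved from dim to strong light has to match these subunits, which come from separate genomes. The study asks how translation in the cytosol and nuclear gene expression respond in the first minutes of high light.

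RPF libraries held 1563427 to 17312840 counts and total RNA libraries 2592499 to 16660558, of which protein-coding genes took 1162389 to 2119227 and 2438332 to 16053563. Both RPF libraries of number 1 differed from the rest, in that rRNA took 82.7% and 84.6% of their counts against 4.42 to 8.66% in the other RPF libraries. The 36 genes received 21288 to 46124 counts in an RPF library and 37459 to 195226 in a library of total RNA, and each of them passed the filter on low counts in every comparison. The rosette label was borne out by mesophyll markers, whose 4 genes summed to 3366 to 8103 CPM (counts per 1000000 of the scaled library size), against at most 0.227 for the 2 flower markers. Guard cell markers summed to at least 28.7 CPM in RPF and at most 27.8 CPM in total RNA, epidermis and trichome markers to 126 to 512 and phloem markers to 58.4 to 223. In whole rosettes, fewer cells of a type and less RNA per cell cannot be told apart.

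After 10 min of high light, FD1, a minor leaf ferredoxin gene, was the one of these genes whose level rose, and no change of the other 35 passed the test without the block. FD1 was 2.60 times higher in total RNA and 2.24 times higher in RPF, judged by group means. In total RNA, 1 of the 36 genes rose, against 0.229% of the 15701 genes tested, and 0 fell, against 0.0127% (edgeR quasi-likelihood test, Benjamini-Hochberg adjusted p under 0.05). In RPF 0 of 36 rose, against 0.242% of 10759 genes, and 0 fell, against 0.00929%. Only FD1 of the 36 had an unadjusted p under 0.05 in RPF, as did 3.38% of all genes, and DESeq2 called 0 of 36 as well. With libraries of the same number treated as a block, FD1 and PSAP rose in RPF, against 1.46% of all genes, and FD1 alone rose in total RNA, against 0.49%. None of the 36 fell with the block, against 0.493% of all genes in RPF and 0.331% in total RNA. Non-overlapping groups with every high light library above every low light library were seen for FD1 only, in RPF (4.63% of all genes) and in total RNA (3.61%). No gene of the 36 showed the opposite arrangement, against 4.47% and 3.15% of all genes.

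Below the threshold, the RPF changes leaned upward. The median log2 change in RPF was 0.10 over the 36 genes, against -0.00 over all genes tested, and 29 of 36 values were above 0, against 49.6% of all genes. Between libraries of the same number, 16 of the 36 were higher in high light in 3 of 3 pairs, against 16.2% of all genes, and 0 were lower in 3 of 3 pairs, against 15.1%. The 36 genes moved together across libraries, so these counts do not rest on 36 separate measurements. The median depended on single libraries: it was -0.06 without the low light RPF library of number 2, -0.04 without the high light RPF library of number 3, 0.05 without that of number 1, 0.29 without that of number 2 and 0.37 without the low light library of number 3. It lay between 0.08 and 0.12 under the other scalings, filters and tools tried with all 6 libraries. In total RNA the median was -0.05, against -0.01 over all genes, with 12 of 36 values above 0 against 48.9%, and 2 genes, FD1 and PGR5, were higher in 3 of 3 pairs, against 15.5%, and 0 were lower in 3 of 3, against 14.7%. That median turned to 0.01 without the high light total RNA library of number 1 and to 0.09 without the low light library of number 3.

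**Figure D1:**
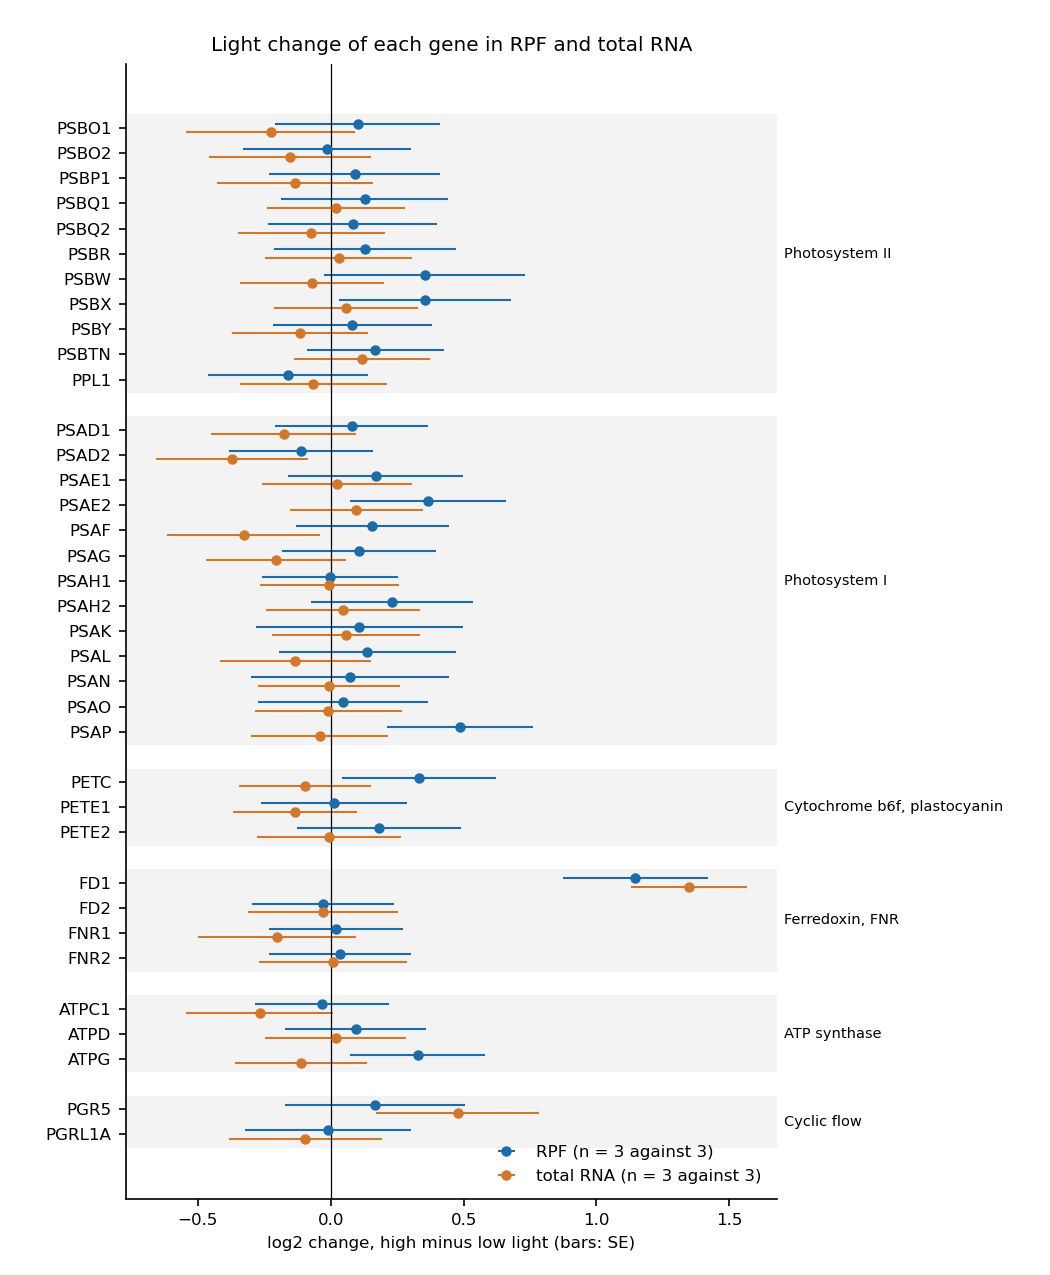
Log2 change from low to high light of each of the 36 genes in RPF (blue) and total RNA (orange), from the edgeR fit over all genes; points are estimates, bars are the standard error, n = 3 libraries against 3, and genes are grouped by complex. FD1 stands alone on the right, at 1.15 in RPF and 1.35 in total RNA, and the other genes lie between -0.37 and 0.49.

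Among the photosystem II genes, 0 of 11 were called in RPF and 0 of 11 in total RNA. PSBO1, PSBP1 and PSBQ encode the lumenal extrinsic proteins that hold the manganese cluster for water oxidation in place. PSBO1 (AT5G66570, chromosome 5, 26568653 to 26570278, plus strand, TAIR10) had the highest RPF level per kilobase of gene among the 11, 1190 ± 376 CPM per kb in low light (mean ± SD, n = 3). By library number, PSBO1 in RPF stood at 1691, 1482 and 2629 CPM in low light and at 1720, 1766 and 2738 CPM in high light. Its total RNA was 1905, 1355 and 2287 CPM in low light and 1413, 1361 and 1969 CPM in high light. The groups overlapped in both kinds, with the library of number 3 highest in each group. The edgeR log2 change of PSBO1 was 0.10 ± 0.31 (SE) in RPF and -0.23 ± 0.32 in total RNA, both with an adjusted p of 1.00. PSBP1 followed at 1027 ± 346 CPM per kb, PSBR, which helps to anchor the extrinsic proteins, at 1001 ± 377, and PSBX, a small membrane subunit, at 981 ± 261. These neighbours in the order did not differ beyond their spread.

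The second copy of the PsbO protein, PSBO2 (AT3G50820), reached 270.0 ± 109.6 CPM per kb in RPF in low light. RPF of PSBO2 was 301, 341 and 614 CPM in low light and 349, 338 and 558 CPM in high light, with a change of -0.01 ± 0.32. Both PsbO genes were highest in number 3 in both lights, and neither separated the light groups. PSBP1 (AT1G06680) was 1707, 1054 and 2150 CPM in RPF in low light and 1901, 1218 and 2109 CPM in high light, higher in 2 of 3 pairs. Its total RNA fell within 1034 to 1658 CPM in low light and 1130 to 1317 CPM in high light. Of the PsbQ genes, PSBQ2 (AT4G05180) was the more abundant. RPF of PSBQ2 was 775, 608 and 1123 CPM in low light and 859, 607 and 1188 CPM in high light. RPF of PSBQ1 (AT4G21280) was 361, 187 and 361 CPM in low light and 375, 215 and 405 CPM in high light, higher in each pair by less than the spread between numbers. PSBTN (AT3G21055), a small subunit exposed to the lumen, was 251, 231 and 320 CPM in RPF in low light and 346, 239 and 315 CPM in high light, with a change of 0.17 ± 0.26. Its groups overlapped, and the pair of number 3 was slightly lower in high light.

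PSBW (AT2G30570), a small membrane subunit that stabilises the supercomplex with the antenna, gave one of the larger uncalled differences of the complex. RPF of PSBW was 946, 465 and 955 CPM in low light and 1399, 511 and 1115 CPM in high light. Each pair was higher in high light, but the library of number 2 in high light lay below those of numbers 1 and 3 in low light. The change was 0.35 ± 0.38 (edgeR, adjusted p = 1.00), and PSBX gave 0.35 ± 0.32. Their total RNA changes were -0.07 ± 0.27 and 0.06 ± 0.27. PPL1 (AT3G55330), a PsbP-like protein involved in photosystem II repair, was the least abundant of the 11, at 30.3 ± 10.1 CPM per kb in RPF in low light. RPF of PPL1 was 53.5, 56.8 and 28.7 CPM in low light and 55.2, 37.5 and 30.4 CPM in high light, so the groups overlapped. The PPL1 change of -0.16 ± 0.30 was the lowest RPF value among the 36 genes and was not called.

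Of the 13 photosystem I genes, 0 were called in total RNA and 0 in RPF without the block. PSAP (AT2G46820), also known as CURT1B, encodes a thylakoid membrane protein of the curved grana margins and rose in RPF with the block. It lies on chromosome 2, 19243496 to 19245141 on the plus strand. RPF of PSAP was 200, 200 and 295 CPM in low light and 305, 254 and 417 CPM in high light. All 3 pairs were higher in high light, while the groups overlapped because the low light library of number 3 exceeded the high light library of number 2. Total RNA of PSAP was 215, 217 and 291 CPM in low light and 211, 252 and 238 CPM in high light, again with overlap. The RPF change was 0.49 ± 0.27 (edgeR, adjusted p = 1.00) without the block and 0.49 ± 0.14 (adjusted p = 0.0250) with it, whereas DESeq2 with the block gave an adjusted p of 0.347. The PSAP call was also lost when the libraries of number 1 were left out of the fit with the block (adjusted p = 0.625). In total RNA the change was -0.04 ± 0.26.

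The subunits on the stromal side, PSAD and PSAE, dock ferredoxin. PSAD1 RPF changed by 0.08 ± 0.29, PSAD2 by -0.11 ± 0.27, PSAE1 by 0.17 ± 0.33 and PSAE2 by 0.37 ± 0.29. In total RNA, PSAD2 had the lowest value of all 36 genes, at -0.37 ± 0.29: it stood at 248, 209 and 371 CPM in low light and at 190, 236 and 214 CPM in high light. The fall in the mean came with 2 of 3 pairs lower, and the groups overlapped. PSAF and PSAN serve plastocyanin docking on the lumenal side, and PSAF differed in sign between the kinds, with 0.16 ± 0.29 in RPF and -0.33 ± 0.29 in total RNA, neither called. PSAG, PSAK, PSAH1, PSAH2, PSAL and PSAO, which bind or dock antenna complexes, had RPF changes between -0.00 and 0.23 and total RNA changes between -0.21 and 0.06. The most counted of these 6 in RPF was PSAL (AT4G12800), at 1096, 900 and 1808 CPM in low light and 1357, 953 and 1876 CPM in high light. PSAO (AT1G08380) was 743, 511 and 1008 CPM in low light and 901, 510 and 925 CPM in high light, so that 1 of 3 pairs was higher. PSAH1 (AT3G16140) and PSAH2 (AT1G52230) encode the same subunit and were alike in level. RPF of PSAH1 was 301, 301 and 414 CPM in low light and 338, 289 and 389 CPM in high light, while PSAH2 was 342, 244 and 382 CPM and then 507, 232 and 397 CPM. The number 1 pair of PSAH2 was higher in high light by 0.57 on the log2 scale, and the other pairs differed by less than 0.08. For PSAE1 (AT4G28750) the number 1 pair alone was higher, at 504, 373 and 711 CPM in low light and 752, 348 and 685 CPM in high light. PSAN (AT5G64040) was 675, 343 and 754 CPM in RPF in low light and 744, 319 and 801 CPM in high light, again with overlap. PSAG (1408 ± 326 CPM per kb in RPF in low light) and PSAF (1397 ± 341) were the most abundant of the 13 per kilobase and could not be told apart by their spread. PSAP (141 ± 33.4) and PSAE2 (153 ± 38.5) were the least abundant.

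PETC (AT4G03280), the Rieske iron-sulphur protein of the cytochrome b6f complex, had one of the more even pairwise differences in RPF. It was 351, 227 and 398 CPM in low light and 437, 294 and 501 CPM in high light. The 3 pairs differed by 0.31, 0.37 and 0.33 on the log2 scale, but the spread between numbers made the groups overlap. The edgeR estimate was 0.33 ± 0.29 (adjusted p = 1.00), and 0.34 with an adjusted p of 0.245 with the block. Total RNA of PETC was 289, 229 and 269 CPM in low light and 257, 255 and 224 CPM in high light, a change of -0.10 ± 0.25. Plastocyanin is encoded by PETE1 and PETE2. PETE2, the main leaf gene, stood at 896 ± 273 CPM per kb in RPF in low light and PETE1 at 132 ± 29.4, with RPF changes of 0.18 ± 0.31 and 0.01 ± 0.27. RPF of PETE2 (AT1G20340) was 813, 595 and 1104 CPM in low light and 976, 684 and 1189 CPM in high light. RPF of PETE1 (AT1G76100) was 79.4, 105 and 125 CPM in low light and 75.8, 93.5 and 144 CPM in high light. PETE2 was higher in high light in 3 of 3 pairs and PETE1 in 1 of 3, and the groups of both overlapped.

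Ferredoxins are small iron-sulphur proteins that take electrons from photosystem I and hand them to FNR and other enzymes. FD1 (AT1G10960, chromosome 1, 3664386 to 3665039, plus strand) was thinly counted. It received 56, 29 and 46 RPF counts in low light, against 108, 69 and 71 RPF counts after high light. In total RNA FD1 received 22, 133 and 95 counts in low light, against 350, 313 and 261 counts after high light. After scaling, RPF of FD1 was 24.6, 21.1 and 30.0 CPM in low light and 58.5, 41.1 and 69.6 CPM in high light. The lowest high light value lay above the highest low light value. FD1 in total RNA was 9.44, 13.4 and 11.2 CPM in low light and 26.4, 30.0 and 32.3 CPM in high light, and these groups stood apart as well.

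In total RNA the FD1 change was 1.35 ± 0.22 (edgeR, adjusted p = 0.0343), and it was 1.37 (adjusted p = 5.32e-05) with the block. In RPF it was 1.15 ± 0.27 (adjusted p = 0.175) without the block and 1.16 ± 0.21 (adjusted p = 9.61e-06) with it. DESeq2 with the block also called FD1 in RPF (adjusted p = 0.0422), and so did edgeR without a filter on low counts (adjusted p = 0.0341). FD1 was not called in RPF with the block once the libraries of number 1 were left out (adjusted p = 0.0561). The call in total RNA was lost without the low light library of number 1 (adjusted p = 0.139) or number 3 (0.246), and without the high light library of number 1 (0.0743), number 2 (0.122) or number 3 (0.176), with changes of 1.25 to 1.43. Without all libraries of number 1 it was 0.271, and 0.000486 with the block. The RPF change relative to that of total RNA was -0.21 ± 0.35 (adjusted p = 1.00).

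FD2, the main leaf ferredoxin gene (AT1G60950, chromosome 1, 22444390 to 22445222, plus strand), showed no such separation. RPF of FD2 was 568, 610 and 828 CPM in low light and 607, 611 and 746 CPM in high light. Its total RNA was 368, 471 and 472 CPM in low light and 349, 541 and 395 CPM in high light. Both comparisons overlapped, with changes of -0.03 ± 0.27 in RPF and -0.03 ± 0.28 in total RNA. Per kilobase of gene, FD2 in RPF stood at 803 ± 167 CPM per kb in low light, against 38.6 ± 6.86 for FD1. The FNR genes, which encode the leaf isoforms of the reductase, had RPF changes of 0.02 ± 0.25 (FNR1) and 0.04 ± 0.27 (FNR2) and total RNA changes of -0.20 ± 0.30 and 0.01 ± 0.28. RPF of FNR1 (AT5G66190) was 343, 275 and 347 CPM in low light and 359, 266 and 355 CPM in high light. RPF of FNR2 (AT1G20020) was 459, 286 and 391 CPM in low light and 430, 319 and 416 CPM in high light. Both reductase genes were lowest in number 2 and showed no separation by light.

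**Figure D2:**
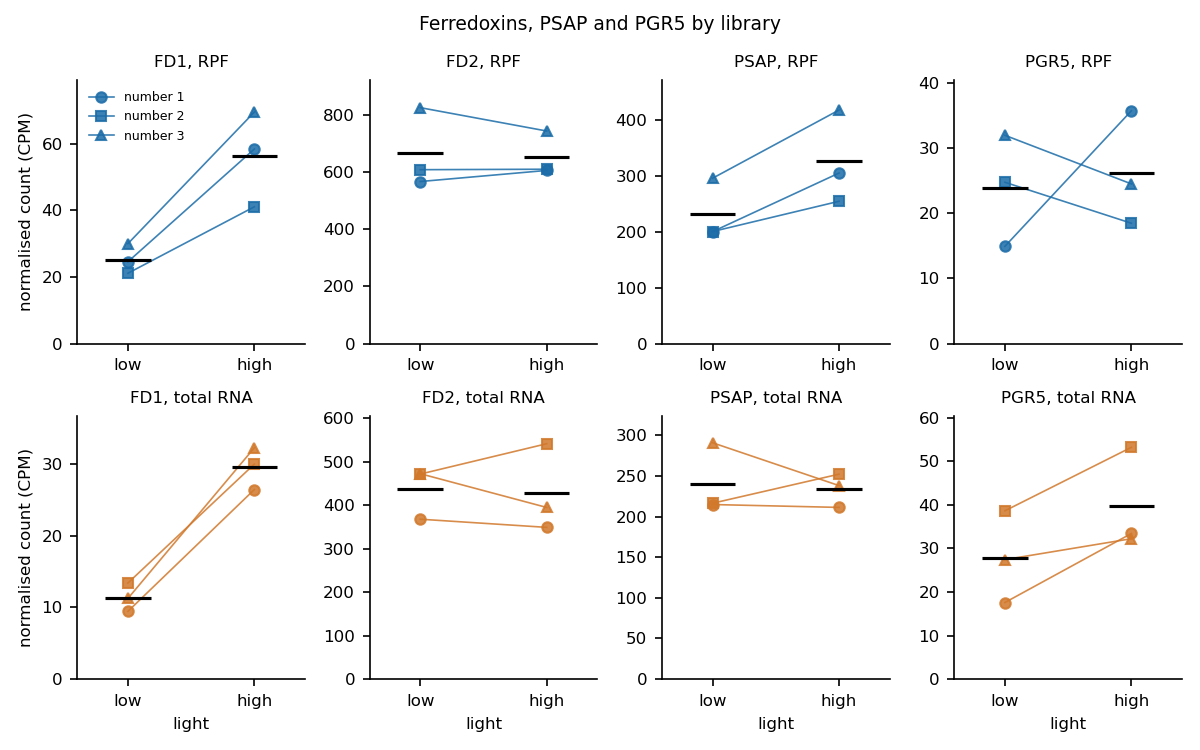
Normalised counts (CPM) of FD1, FD2, PSAP and PGR5 in each library under low and high light, RPF in the upper row (blue) and total RNA in the lower row (orange); symbols mark the library number, lines join libraries of the same number and black bars are group means, n = 3. FD1 is the only one whose high light libraries all lie above its low light libraries, in both rows, from at most 30.0 to at least 41.1 CPM in RPF and from at most 13.4 to at least 26.4 CPM in total RNA.

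The nuclear ATP synthase genes encode the gamma subunit (ATPC1), which carries the thiol switch of the enzyme, the delta subunit (ATPD) and a stator subunit of the membrane part (ATPG). None of the 3 was called for light in RPF or total RNA. RPF of ATPC1 varied little: 702, 600 and 694 CPM in low light and 626, 657 and 668 CPM in high light, a change of -0.03 ± 0.25. ATPD (AT4G09650) in RPF was 278, 218 and 359 CPM in low light and 331, 246 and 336 CPM in high light, higher in 2 of 3 pairs. ATPG in RPF was 197, 249 and 293 CPM in low light and 301, 270 and 357 CPM in high light, higher in 3 of 3 pairs with overlapping groups. Its change was 0.33 ± 0.25 (edgeR, adjusted p = 1.00). Per kilobase in RPF in low light the order was ATPC1 (438 ± 37.6), ATPD (295 ± 73.3) and ATPG (223 ± 43.6), of which ATPD and ATPG did not differ beyond their spread.

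PGR5 and PGRL1A belong to the pathway that returns electrons from ferredoxin to the plastoquinone pool around photosystem I. PGR5 (AT2G05620) had the lowest RPF level per kilobase of the 36 genes in low light, 28.1 ± 10.1 CPM per kb, within its spread of PPL1, and PGRL1A (AT4G22890) stood at 64.8 ± 23.4. PGR5 in total RNA was 17.6, 38.7 and 27.4 CPM in low light and 33.4, 53.2 and 32.3 CPM in high light. All 3 pairs were higher in high light, and the groups overlapped. The change of 0.48 ± 0.31 was not called without the block (edgeR, adjusted p = 1.00) or with it (adjusted p = 0.277). In RPF PGR5 was 14.9, 24.7 and 32.0 CPM in low light and 35.7, 18.5 and 24.5 CPM in high light, so that 1 of 3 pairs was higher. PGRL1A in RPF was 122, 138 and 232 CPM in low light and 149, 109 and 232 CPM in high light, without separation. It changed by -0.01 ± 0.31 in RPF and -0.10 ± 0.29 in total RNA.

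Summed over each complex, the RPF libraries differed more by their number than by light, whereas in total RNA the numbers did not keep their order between lights. The 36 genes together took 20225, 15492 and 26783 CPM of RPF in low light and 23836, 16717 and 27744 CPM in high light. In total RNA the sums were 16070, 14496 and 19964 CPM in low light and 14740, 16716 and 16280 CPM in high light. On this scale every RPF pair was higher in high light, by 0.24, 0.11 and 0.05 on the log2 scale, while the total RNA pairs differed by -0.12, 0.21 and -0.29. As a share of nuclear protein-coding counts, the 36 genes held 4.17% ± 0.962 of RPF in low light and 4.37% ± 0.841 in high light, and 4.81% ± 0.538 and 4.75% ± 0.337 of total RNA. By complex, the mean pairwise RPF difference was 0.15 for photosystem II, 0.13 for photosystem I, 0.21 for cytochrome b6f with plastocyanin, 0.04 for ferredoxin with FNR, 0.08 for the ATP synthase and 0.01 for cyclic flow. On the CPM scale each of the first 3 was above 0 in 3 of 3 pairs, as was the ATP synthase. These CPM differences shrank when the sums were expressed as a share of nuclear protein-coding counts. By share the mean pairwise difference was 0.09 for photosystem II, 0.07 for photosystem I, 0.16 for cytochrome b6f with plastocyanin and 0.03 for the ATP synthase, and it turned to -0.02 for ferredoxin with FNR and -0.05 for cyclic flow. The number 3 pair was then lower in high light for photosystem I (2.17% in low light, 2.15% in high light), the ATP synthase (0.264% and 0.257%) and the 36 genes together (5.26% and 5.25%).

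The RPF library of number 3 was the highest of its group for 32 of 36 genes in low light and 27 of 36 in high light. The RPF library of number 2 was the lowest for 26 and 30 of 36. Total RNA kept no such order. There number 3 was the highest for 30 of 36 genes in low light and number 2 for 19 in high light. The lowest was number 2 for 20 of 36 in low light and number 1 for 22 in high light. Within a light condition the median gene of the 36 spanned 0.82 log2 units between RPF libraries, whereas the median size of its light difference was 0.11. Over all genes tested those medians were 0.70 and 0.22. In total RNA the span was 0.43 and the light difference 0.08 for the 36 genes, against 0.60 and 0.17 over all genes. Mesophyll markers ranged between libraries too, from 4999 to 7350 CPM in RPF in low light and from 5713 to 8103 in high light. Their part in the spread of the 36 genes was not tested.

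**Figure D3:**
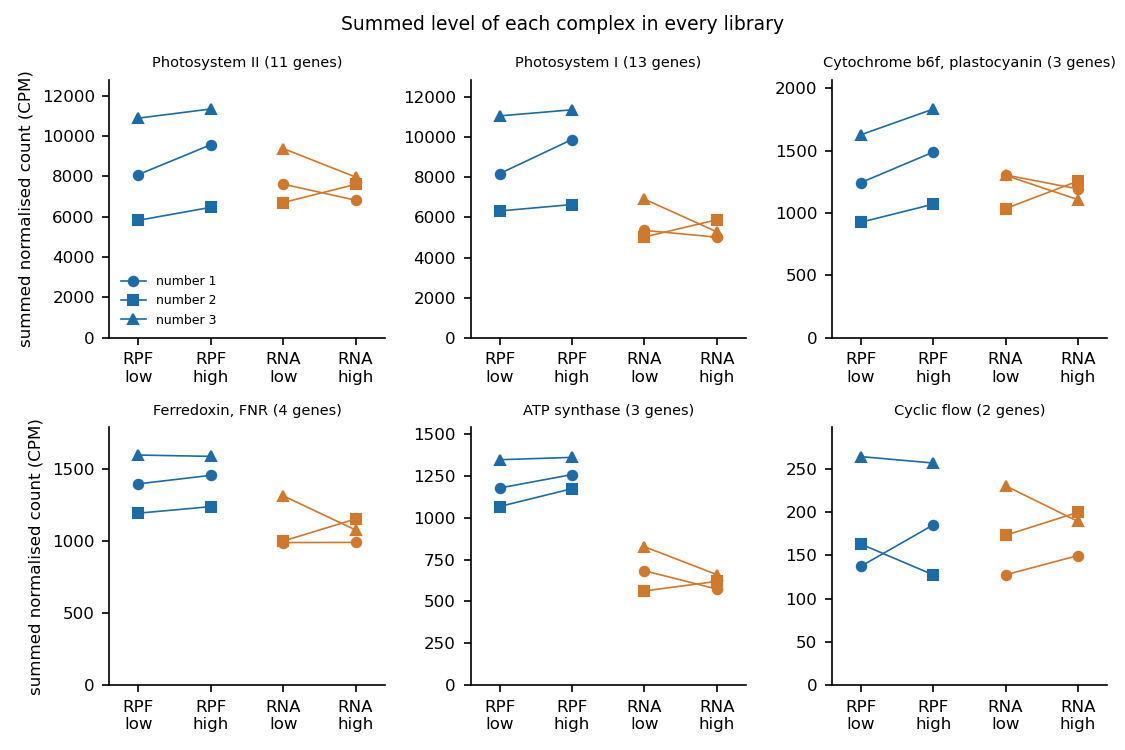
Summed normalised counts (CPM) of the genes of each complex in every library, RPF in blue and total RNA in orange; symbols mark the library number, lines join libraries of the same number, and each panel has its own vertical scale starting at 0. In both photosystems the 3 library numbers keep their order in RPF in both lights, with number 3 highest and number 2 lowest, and each RPF line rises by 0.04 to 0.27 on the log2 scale.

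Ribosome occupancy relative to transcript was then compared gene by gene, as RPF against total RNA in the same light. In the edgeR fit without the block, PSBY, PSAG, PSAF and ATPG were called higher in RPF in high light, and PSBY alone in low light. With the block, PSAD1 was called higher in both lights as well. PSBR and PSAK in both lights and PGR5 in high light were called lower with the block and not without it. In this comparison the block took the effect of a library number as the same in both kinds and lights. Numbers correlated less between kinds than within a kind, so the blocked calls rest on an assumption that was not tested. In low light 1 of 36 genes was called higher in RPF, against 4.98% of 12789 genes, and 0 were called lower, against 3.47%. In high light 4 of 36 were called higher, against 4.8% of all genes, and 0 lower, against 1.88%. With the block 3 were higher (9.39% of all genes) and 2 lower (7.53%) in low light, and 5 were higher (9.16%) and 3 lower (5.66%) in high light. Counts this small do not set the 36 genes apart from all genes. Values above 0 were found for 12 of 36 genes in low light, against 48% of all genes, and for 16 of 36 in high light, against 47.8%. The median of the 36 was -0.25 in low light, against -0.03 over all genes, and -0.02 in high light, against -0.03. The low light median was -0.06 without the RPF library of number 2, -0.07 without the total RNA library of number 3 and -0.43 without the RPF library of number 3. With scaling factors computed within each kind of library the median gene of all moved to 0.41 in both lights and the members' medians to 0.19 and 0.42, so directions are meaningful only relative to the median gene. The calls over all genes then split into 2522 higher and 150 lower in low light, against 637 and 444 with factors over all 12 libraries. In high light they split into 2585 and 73, against 614 and 240. CPM of RPF and of total RNA were scaled within each kind, which raises RPF CPM over total RNA CPM by the same shift. Counts span the whole gene, so a gene's untranslated stretches add to its total RNA but hold few RPF. Reads of the different kinds were also aligned with different programs, and the part of this in the values of single genes was not tested.

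PSBY (AT1G67740) encodes a membrane subunit of photosystem II whose precursor is cleaved into separate small proteins (chromosome 1, 25394068 to 25395154, minus strand). RPF of PSBY was 336, 346 and 579 CPM in low light and 360, 385 and 589 CPM in high light. Its total RNA was 143, 111 and 174 CPM in low light and 122, 132 and 142 CPM in high light. Every RPF library lay above every total RNA library, by more than the shift in scale between the kinds. The RPF value exceeded that of total RNA by 1.08 ± 0.29 (edgeR, adjusted p = 0.0273) in low light and by 1.26 ± 0.29 (adjusted p = 0.0142) in high light. The low light call was lost without the total RNA library of number 1 (adjusted p = 0.0544) or number 2 (0.147) or the RPF library of number 3 (0.137), and the high light call without the total RNA library of number 1 (0.0610) or number 2 (0.0741) or the RPF library of number 3 (0.0706).

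PSAG (AT1G55670) binds the photosystem I antenna (chromosome 1, 20802670 to 20803449, minus strand). RPF of PSAG was 1064, 862 and 1367 CPM in low light and 1268, 890 and 1389 CPM in high light. Its total RNA was 476, 349 and 461 CPM in low light and 375, 398 and 343 CPM in high light, well below RPF in every library. The difference was 0.88 ± 0.28 in low light (edgeR, adjusted p = 0.0558, and 0.00733 with the block; 0.00447 in DESeq2) and 1.18 ± 0.28 in high light (adjusted p = 0.0166). The high light call was lost without the total RNA library of number 1 (0.0565), number 2 (0.0714) or number 3 (0.0660) or the RPF library of number 3 (0.0609).

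PSAF (AT1G31330, chromosome 1, 11214824 to 11216037, minus strand) was called in high light in edgeR with and without the block, and in low light in neither. RPF of PSAF was 1578, 1353 and 2156 CPM in low light and 1880, 1562 and 2228 CPM in high light. Its total RNA was 882, 580 and 938 CPM in low light and 670, 642 and 600 CPM in high light, below RPF throughout. The difference was 0.61 ± 0.28 in low light (edgeR, adjusted p = 0.194, and 0.0526 with the block) and 1.08 ± 0.29 in high light (adjusted p = 0.0316). The change in that difference between lights, which is the change in translational efficiency, was 0.47 ± 0.41 (adjusted p = 1.00), so a difference between the lights was not shown. In low light PSAF was called by DESeq2 with the block (adjusted p = 0.0153) and by edgeR with scaling factors within each kind (0.0164). With those factors the PSAF value was 1.05, but the median gene also lay above 0. That call is therefore against 0 and not against the median gene. Leaving out any of the 6 high light libraries ended the high light call, with adjusted p between 0.0606 and 0.130.

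ATPG (AT4G32260, chromosome 4, 15573636 to 15574737, minus strand) had 0.43 ± 0.24 in low light (edgeR, adjusted p = 0.288) and 0.86 ± 0.24 in high light (adjusted p = 0.0429). Its total RNA was 139, 107 and 149 CPM in low light and 111, 115 and 139 CPM in high light. These lay below the RPF values given above in every library, a gap that includes the shift in scale between the kinds. In low light the closest RPF and total RNA libraries lay apart by less than that shift. The ATPG call was lost without any of the 6 high light libraries (adjusted p between 0.0673 and 0.175), without the low light RPF library of number 2 (0.0515) or the low light total RNA library of number 3 (0.0526). Without a filter on low counts it was 0.0683, and with all genes in the fit it was 0.0534. PSAD1 (AT4G02770, chromosome 4, 1229111 to 1229945, minus strand) passed with the block in edgeR, at 0.66 (adjusted p = 0.0379) in low light and 0.86 (adjusted p = 0.00925) in high light. Without the block it was 0.66 ± 0.28 (adjusted p = 0.145) and 0.90 ± 0.28 (adjusted p = 0.0612), while DESeq2 gave adjusted p of 0.0559 and 0.00607. The low light call of PSAD1 with the block was lost once the libraries of number 1 were left out (adjusted p = 0.105), and the high light call was not (0.0345). RPF of PSAD1 was 898, 657 and 1066 CPM in low light against 412, 312 and 467 CPM in total RNA.

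On the other side, PSBR (AT1G79040, chromosome 1, 29736016 to 29737009, plus strand) was 1030, 603 and 1351 CPM in RPF and 1294, 1307 and 1496 CPM in total RNA in low light. On the CPM scale, which raises RPF over total RNA, the RPF value of number 3 lay within the range of total RNA. It exceeded the lowest total RNA value by less than that shift in scale. The RPF values of numbers 1 and 2 fell short of the range. PSBR differed by -0.94 ± 0.33 in low light (edgeR, adjusted p = 0.0844) and -0.85 ± 0.33 in high light (adjusted p = 0.127), and was called lower with the block (adjusted p = 0.00759 and 0.0149). DESeq2 without the block called PSBR lower in low light (adjusted p = 0.0339). PSAK is an antenna-binding subunit related to PSAG (chromosome 1, 10722197 to 10723247, plus strand). In low light PSAK gave 351, 201 and 477 CPM in RPF and 344, 435 and 508 in total RNA. These ranges overlapped on the CPM scale. Its difference was -0.80 ± 0.36 in low light and -0.77 ± 0.36 in high light (edgeR, adjusted p = 0.180 and 0.211), called lower with the block (0.0442 and 0.0449). Both PSAK calls were lost with the block once the libraries of number 1 were left out (edgeR, adjusted p = 0.0579 and 0.0690). The related PSAG and PSAK thus lay on opposite sides of the median gene in both lights. PGR5 (chromosome 2, 2081009 to 2081858, minus strand) had -0.76 ± 0.35 in low light (adjusted p = 0.193) and -1.08 ± 0.35 in high light (adjusted p = 0.0693), the latter called lower with the block (adjusted p = 0.0406), without a filter on low counts (0.0357) and without the libraries of number 1 (0.0259). A gene on the opposite strand overlaps PSBR, PSAE2, PSAH1 and FNR1, and counting was stranded in both kinds of library.

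Across complexes, the 3 ATP synthase genes lay above the median gene in both lights, between 0.28 and 0.88 relative to it, and the 2 cyclic flow genes below it, between -1.06 and -0.24. Photosystem I was mixed, from -0.77 for PSAK to 1.20 for PSAG. In all, 29 of 36 genes were on the same side of the median gene in low and in high light. The share over all genes was not computed, so this count does not set the 36 apart. The 7 that crossed it were PSBP1, PSBQ1, PSBW, PSAD2, PSAH2, PSAP and PETC, each from below in low light to above in high light. RPF and total RNA levels of the 36 genes went together, with a Pearson r of 0.95 in low light and 0.93 in high light and a Spearman rho of 0.91 and 0.88 on log2 CPM (n = 36 genes, which share libraries and gene length).

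**Figure D4:**
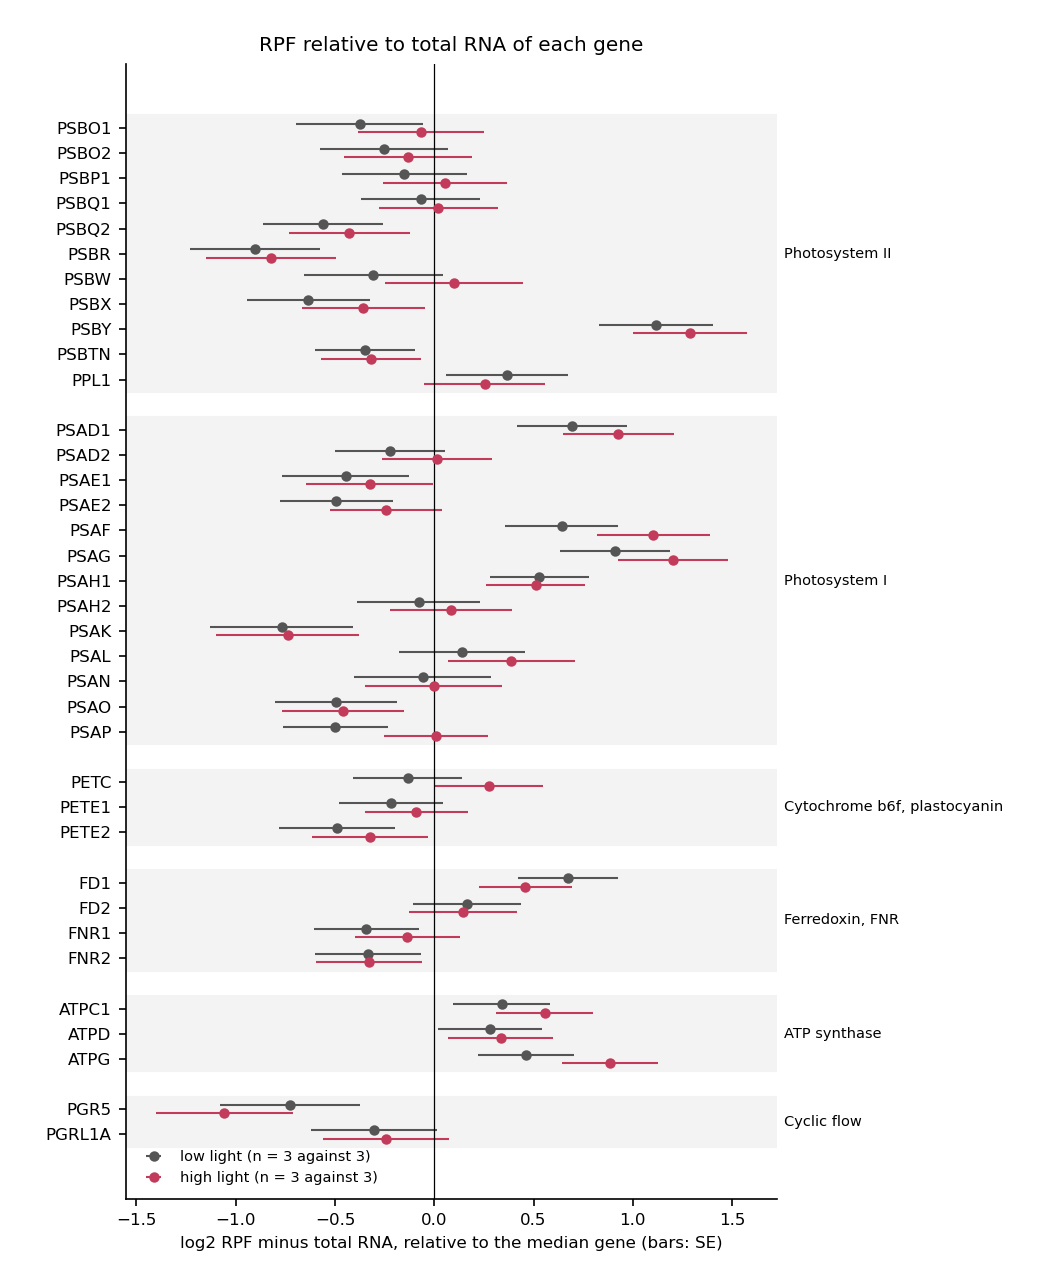
Log2 difference between RPF and total RNA of each of the 36 genes in low light (grey) and high light (red), relative to the median of all 12789 genes tested, which is at 0; points are edgeR estimates, bars are the standard error, n = 3 libraries against 3, and genes are grouped by complex. PSBY, PSAG and PSAF reach above 1 in high light, PGR5 lies at -1.06, and the low and high light points of most genes are close together.

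Translational efficiency, the RPF change relative to the total RNA change, was tested as a difference between the light changes of both kinds of library. No gene was called, 0 of 36 and 0 of 12789, with edgeR with or without the block. At an unadjusted p under 0.05 there were 0 of the 36 and 1.36% of all genes, and DESeq2 called 0 genes without the block and 4 with it, none of them among the 36. The median over the 36 was 0.15, against 0.02 over all genes, with 31 of 36 values above 0 against 52.3%. The highest were PSAP (0.51 ± 0.38), PSAF (0.47 ± 0.41) and ATPG (0.42 ± 0.35), and the lowest were PGR5 (-0.33 ± 0.49) and FD1 (-0.21 ± 0.35). The median was -0.01 without the high light RPF library of number 3, 0.00 without the low light RPF library of number 2 and 0.01 without the low light total RNA library of number 3. It was 0.10 without the high light total RNA library of number 1, 0.34 without the high light RPF library of number 2 and 0.41 without the low light RPF library of number 3.

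Of the 36 genes, 16 form 8 pairs of paralogs, and the balance within a pair was compared from the counts of both. FD1 made up 4.14%, 3.34% and 3.50% of the ferredoxin RPF in low light, against 8.78%, 6.30% and 8.53% after high light. In total RNA its share was 2.50%, 2.76% and 2.32% in low light, against 7.04%, 5.25% and 7.55% after high light. The light groups stood apart in both kinds for this pair alone, and overlapped in both kinds for the other 7. These shares use the same FD1 counts as the changes above and are no separate result. How often shares stand apart over other pairs of genes was not computed. PSAD1 held 73.2% ± 2.97 of its pair in RPF in low light and 59.3% ± 3.37 in total RNA, with the lowest RPF library at 71.4% and the highest total RNA library at 62.4%. In high light the PSAD1 share was 75.5% ± 1.38 in RPF and 62.1% ± 4.28 in total RNA. The PSBQ1 share was 26.5% ± 4.54 in RPF and 20.5% ± 2.06 in total RNA in low light, and these groups also stood apart, as they did in high light, at 27.3% ± 2.67 and 21.6% ± 2.81. PSAH1 held 51.4% ± 4.24 in RPF and 41.2% ± 5.38 in total RNA in low light, with overlap. PSBO1 (82.4% ± 2.14 in RPF in low light), PSAE1 (76.7% ± 1.30), PETE1 (11.4% ± 3.21) and FNR1 (46.3% ± 3.19) differed from their total RNA shares by less than the spread between libraries. Reads that match both members of a pair may have been split or dropped in counting, which was not tested.

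**Figure D5:**
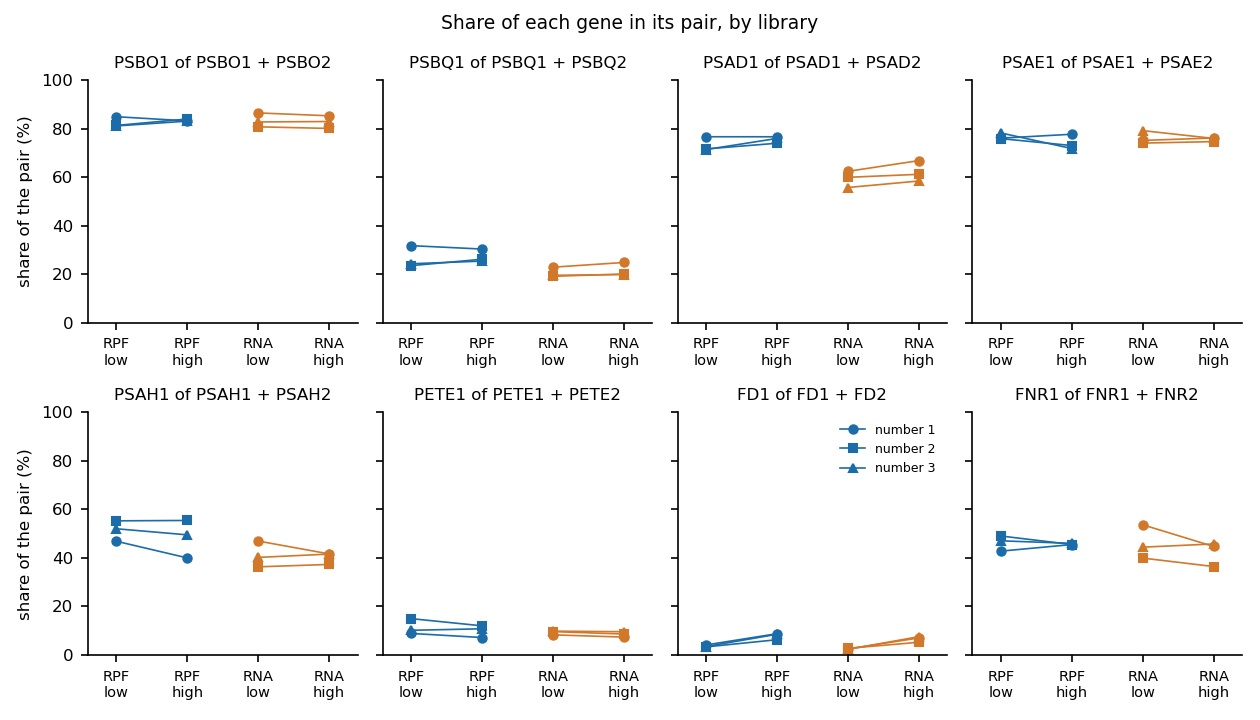
Share of the first-named gene in the counts of its paralog pair (percent), by library, for the 8 pairs, RPF in blue and total RNA in orange; symbols mark the library number and lines join libraries of the same number. FD1 rises from at most 4.14% to at least 6.30% in RPF and from at most 2.76% to at least 5.25% in total RNA, and the PSAD1 share is higher in RPF than in total RNA in every library.

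Per kilobase of gene, most of these genes ranked among the highest of the nucleus in RPF, and also in total RNA. Of 26710 nuclear protein-coding genes ranked by RPF CPM per kb in low light, 14 of the 36 were in the top 50, 24 in the top 100 and 32 in the top 200. The same counts in high light were 14, 23 and 31. In total RNA they were 17, 21 and 32 in low light and the same in high light, so the RPF ranks do not set translation apart from transcript level. PSAG held rank 8 in low light, PSAF 9, PSBO1 17, PSAD1 19 and PSBP1 20. In total RNA the leading member was another gene, PSBR, at rank 10 in low light and 8 in high light, followed by PSBO1 at 12 in low light and PSBX at 11 in high light. The 4 genes outside the top 200 of RPF in low light were PGRL1A (rank 463), FD1 (848), PPL1 (1120) and PGR5 (1228). FD1 moved to rank 344 in high light in RPF, and from 1497 to 509 in total RNA.

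The plastid-encoded partners of these complexes were examined in the same way. None of 14 photosystem II, 5 photosystem I, 6 cytochrome b6f and 6 ATP synthase genes of the plastid was called for light in RPF or total RNA without the block. The median RPF changes of these groups were -0.02, -0.04, -0.07 and -0.11. The exception with the block was psbA, which encodes the D1 protein of the photosystem II centre, at 1.37 ± 0.27 (edgeR, adjusted p = 0.0582, and 6.24e-44 with the block). Of 52 nuclear genes for assembly factors and regulators of the chain, 47 were tested in RPF and 52 in total RNA, and 0 were called in either, with medians of 0.10 and 0.03. With the block 1 of them, PSA2, a photosystem I assembly factor, rose in RPF by 0.80 (adjusted p = 0.0265). In RPF against total RNA, 1 of 51 was called higher in low light, against 4.98% of all genes, and 5 lower, against 3.47%, led by PPL2 at -1.38 ± 0.27 (edgeR, adjusted p = 0.00553). In high light 2 were called higher, against 4.8% of all genes, and 2 lower, against 1.88%, led by the thylakoid kinase gene STN8 at 1.29 ± 0.24 (edgeR, adjusted p = 0.00419). FD1 was therefore the only nuclear gene of the 88 in both lists called for light in total RNA.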

How the data were processed

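The authors deposited raw counts per gene, 1 file per library, made with featureCounts 1.5.0-p1 per the file headers. The headers give stranded counting (setting 1 for RPF, 2 for total RNA) over Bowtie2 (RPF) and subjunc (total RNA) alignments. The counted length of a gene equals its full span, so introns and untranslated regions are included. The submitters' processing notes name Bowtie2 2.2.9, Subread 1.4.5, cutadapt 1.9.1, FastQC 0.11.5 and the build TAIR10, to which coordinates refer. Multi-mapped reads are not described in the sources used here.

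Gene types came from the RefSeq table for TAIR10.1, where 28009 genes were found through their locus tag and, by position, 123 of 133 plastid genes. The 26789 protein-coding genes entered the tests, and 146 mitochondrial genes without a type did not. The fits were edgeR 4.0.16 (R 4.3.3) quasi-likelihood with robust dispersion, filterByExpr and TMM: RPF or total RNA alone for light, and all 12 libraries for translational efficiency (TMM within each kind) and for RPF against total RNA (TMM over all 12). Benjamini-Hochberg adjusted p under 0.05 over all genes counted as called. The edgeR fits without the block were run on simulated counts with known changes. Those counts held no effect of the library number, so the run does not bear on the blocked fits or on the spread between numbers. DESeq2 1.42.0 and limma 3.58.1 served as alternatives, and tables and figures used Python 3.11.15. Errors are SE for log2 changes and SD over 3 libraries for CPM, which were TMM-scaled within each kind. Levels between genes are per kilobase of gene span, because coding lengths were not at hand, so long introns lower a gene's value.

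Libraries of the same number deviated together from their group means: correlations over 11082 genes with at least 5 CPM were 0.656, 0.499 and 0.372 in RPF, 0.555, 0.640 and 0.484 in total RNA, and 0.110 to 0.275 between kinds. The numbers were therefore taken as pairs, and a blocked fit is given where it changes a call. For translational efficiency the block held a separate number effect for each kind. For RPF against total RNA it held a number effect shared by both kinds and lights, although correlations between kinds were the lowest. The labels call the RPF replicates biological; for total RNA nothing says so, and its p-values measure the spread between these samples, which may be technical. No replicates were the same library, with chi-square per degree of freedom of 6.05 to 55.6. Members and gene lists were chosen with earlier results of these data known. The genes named are those called in any comparison with or without the block, the most and least abundant of each complex, the paralog pairs, and from other lists the smallest p-values. PSBW, PSBX, PETC, PSAD2, PSAE2 and the highest and lowest efficiency values were singled out after their values were seen.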

Additional observations from a re-analysis of the deposited data

How the results depend on the processing

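The effect of depth on these calls was not tested, and FD1 rests on 22 to 350 counts per library. For light in RPF, 27 genes were called; this became 50 without a filter on low counts, 13 with all genes in the fit, 210 with the replicate block, 59 with DESeq2 and the block, 56 with the block after dropping the number 1 libraries, and 11 to 21 without single libraries. Members called went from 0 to 1, 2 and 1 without the filter, with the block and with DESeq2 and the block, and the members' median ranged from -0.056 to 0.37 without single libraries. For light in total RNA, 38 calls became 64 with DESeq2, 129 with the block, 104 with DESeq2 and the block, 22 without number 1 libraries, 100 with the block and without them, and 14 to 38 without single libraries; members called were 0 without number 1 and 0 to 1 without single libraries. Translational efficiency had 0 calls, and 4 with DESeq2 and the block. For RPF against total RNA in low light, 1081 calls became 2164 with the block, 1964 with DESeq2 and the block, 1952 with the block and without number 1, 2672 with TMM within each kind, and 280 to 1153 without single libraries. The 1 member called became 3 (DESeq2), 2 (nuclear genes alone, or limma-voom), 5 (block), 9 (DESeq2 with the block), 0 (without number 1), 3 (block without number 1), 8 (TMM within each kind) and 0 to 1 (single libraries); the median of -0.25 became 0.19 with TMM within each kind and -0.43 to -0.063 without single libraries. In high light, 854 calls became 1895 with the block, with or without number 1, 1802 with DESeq2 and the block, 2658 with TMM within each kind, and 261 to 946 without single libraries; the 4 members called became 8, 7, 10 and 8 under those settings in that order (block, block without number 1, DESeq2 with the block, TMM within each kind), 1 without number 1 and 0 to 4 without single libraries, and the median became 0.42 with TMM within each kind. Summed RPF differences as a share of nuclear counts were 0.16 for cytochrome b6f with plastocyanin (0.21 as CPM), -0.022 for ferredoxin with FNR (0.04), -0.05 for cyclic flow (0.01), 0.03 for the ATP synthase (0.08), 0.07 for photosystem I (0.13) and 0.09 for photosystem II (0.15). The causes were not tested. With TMM within each kind, calls in high light were 2585 higher and 73 lower, against 614 and 240 with TMM over all 12. No called value of a member changed direction under any alternative run, and the block changed no member calls other than those given above. Coding length as the basis of levels was planned and not run, since no coding sequences were given.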
